A study of Mus musculus with 21 samples.

Results

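Ribosomal protein pseudogene loci were the rows of the count table whose symbol begins with Rpl or Rps and ends in -ps, with or without a number. They numbered 154 of 20960 rows and carry the names of 53 parent genes, the symbols before -ps, all of which are rows as well. The libraries came from hearts of adult male wild-type mice that received polystyrene nanoplastics, plastic particles of nanometre size, for 8 weeks, or distilled water as control, and neither group carries any allele or further agent in the labels. There were 4 nanoplastics mice and 3 control mice, and each heart gave a library labelled atria, one labelled right ventricle and one labelled left ventricle, which makes 21 libraries.

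Processed pseudogenes are copies of a messenger RNA that was reverse transcribed and inserted elsewhere in the genome, so they have the exons of the parent in a row and none of its introns. Ribosomal protein genes, which are short and among the most transcribed genes of every cell, have left more such copies than almost any other family, and a copy is usually thought of as silent unless it landed beside an active promoter. A count at such a locus can stem from RNA made there or from parent RNA whose read was placed there, and counts alone cannot tell these apart.

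Of the loci, 91 are named for proteins of the large ribosomal subunit and 63 for proteins of the small subunit. Rpl31 had the most named copies, 10, and 19 parents had 1. In the GENCODE M21 annotation, 149 of the 154 symbols were found: 140 are typed as processed pseudogenes, 5 as transcribed processed pseudogenes and 4 as protein coding. On the same strand inside a protein coding gene lie 16 of them, among them Rps19-ps6 in Tecpr2 and Rps15a-ps6 in Nudcd3. These hosts had few counts themselves, 29 for Tecpr2 and 414 for Nudcd3 over all libraries.

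The sequences below are the annotated transcripts of GENCODE M21, written 5′ to 3′ and matched by name, since the build behind the counts is not given in the sources used here. They were chosen as loci with many counts whose bodies differ from the parent in different ways, and capitals mark bases that differ from the parent. Rpl36-ps2, on chromosome 11, is the locus with the most counts and has a single substitution, G72C (bases 1 to 120 shown), written with the parent's base first and the position counted from 1 at the first base of the pseudogene.
Rpl36-ps2: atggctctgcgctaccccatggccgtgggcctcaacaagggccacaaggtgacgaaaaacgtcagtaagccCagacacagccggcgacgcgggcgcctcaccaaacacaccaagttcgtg
It also lacks 10 bases of Rpl36, which are in capitals in the following stretch of the parent, shown above the same stretch of the pseudogene.
Rpl36: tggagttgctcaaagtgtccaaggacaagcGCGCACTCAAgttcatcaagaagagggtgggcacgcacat
Rpl36-ps2: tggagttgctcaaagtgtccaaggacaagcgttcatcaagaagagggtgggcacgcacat
The gap shifts the reading frame, and the first stop in the frame of the opening ATG is codon 87 of the pseudogene. Rpl31-ps8, on chromosome 15, has 378 annotated bases, and every one is the same as in Rpl31, so bases 1 to 150 are printed without capitals.
Rpl31-ps8: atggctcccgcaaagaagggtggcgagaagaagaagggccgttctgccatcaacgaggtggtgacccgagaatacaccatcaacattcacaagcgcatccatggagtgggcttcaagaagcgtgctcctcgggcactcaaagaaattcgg
Rps19-ps6, on chromosome 12, differs from Rps19 by C6T, T273C, G369A, G372A and C390T, and its first stop in frame is codon 146, its last; bases 260 to 410 are shown.
Rps19-ps6: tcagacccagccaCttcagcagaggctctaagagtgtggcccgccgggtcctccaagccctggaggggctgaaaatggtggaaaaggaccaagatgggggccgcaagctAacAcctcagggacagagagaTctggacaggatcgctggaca
Rps15a-ps6, on chromosome 11, differs from Rps15a by C7T, C117T, T150C, A164G and T301C, and C7T makes its codon 3 a stop; bases 1 to 180 are shown.
Rps15a-ps6: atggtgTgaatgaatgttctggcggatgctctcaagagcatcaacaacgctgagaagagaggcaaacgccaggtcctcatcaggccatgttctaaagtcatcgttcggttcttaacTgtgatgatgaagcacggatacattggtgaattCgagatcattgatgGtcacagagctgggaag
Rpl35a-ps2, on chromosome 1, differs from Rpl35a by G156A alone, and Rpl35a-ps3, Rpl35a-ps4 and Rpl35a-ps6, on chromosomes 17, 2 and 5, have the same 333 bases as Rpl35a-ps2, of which 100 to 210 are shown.
Rpl35a-ps2: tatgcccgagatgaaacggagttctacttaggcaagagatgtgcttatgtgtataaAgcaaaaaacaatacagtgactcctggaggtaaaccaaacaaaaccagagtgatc

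The loci held 55191 counts over the 21 libraries, spread very unevenly. The 15 loci with 1000 or more counts took 81.7% of them and the 5 highest took 49.7%. Rpl36-ps2 had 12088 counts, Rpl31-ps8 4964, Rps19-ps6 3693, Rps18-ps3 3467 and Rps16-ps2 3244. At the other end 98 loci had under 50 counts and 68 had under 10. The median locus had 14.5 counts. In all 21 libraries 10 loci had a count, a number set by the library of 4662 counts: 43 had one in each of the 20 others. A count in a single library was all that 32 loci had.

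Likeness to the parent and counts went together loosely across loci. Of the 147 loci that align to their named parent over most of their length, the identity ranged down to 87.54% with a median of 98.55%. The 13 loci identical to the parent over the aligned part had a median of 1084 counts and 35.1% of all counts at the loci. The 42 loci under 97% identity had a median of 3 counts, yet that class includes Rpl36-ps2 and Rpl21-ps6. Bases in a gap count as differences in this measure. Rpl36-ps2, with a single substitution, falls in that class through the 10 bases it lacks. Across 145 loci whose parent had at least 50 counts, Spearman's rho between percent identity and counts per parent count was 0.50, a description over loci that share libraries, depth and, in part, parents. High identity was no guarantee of counts: Rpl31-ps9, at 99.47% identity to Rpl31, and Rpl31-ps12, at 98.93%, had 1 count each. Of 123 loci whose sequence opens with ATG, 95 have a frame open to the last 5 codons and a median of 20 counts, and 28 have an earlier stop and a median of 8 counts. Rpl36-ps2, Rps15a-ps6 and Rps18-ps3, where C430T makes codon 144 a stop, are among those with an earlier stop.

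**Figure D1:**
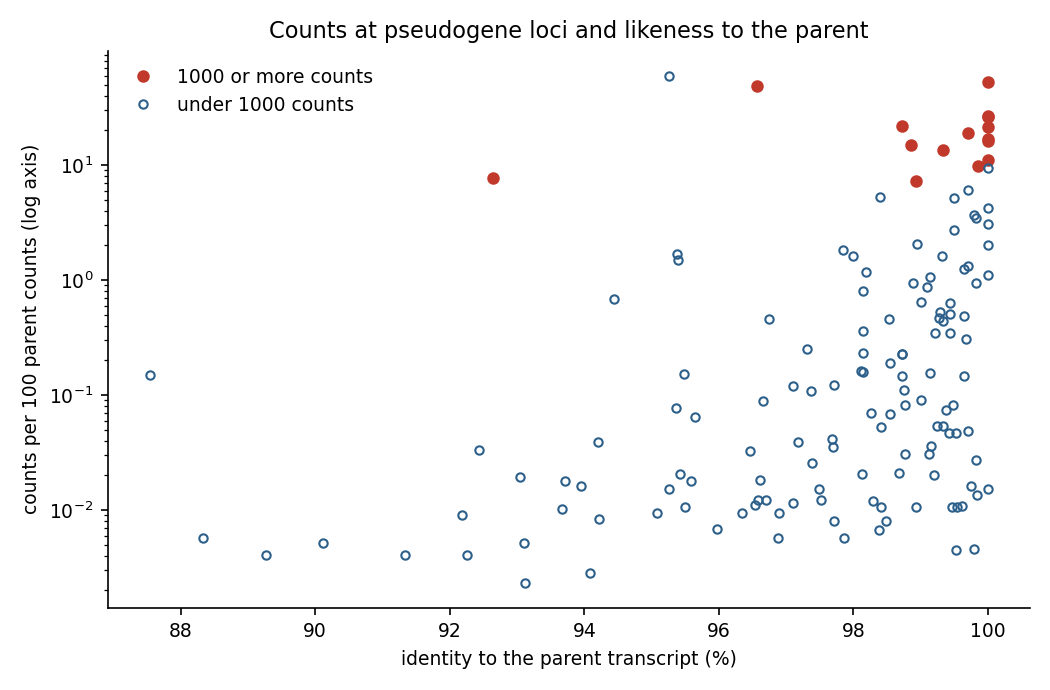
Each point is a pseudogene locus; the horizontal axis is its identity to the parent transcript in percent and the vertical log axis its counts over all libraries per 100 counts of the parent. Filled points, the loci with 1000 or more counts, lie mostly near 100% identity, and Rpl36-ps2 (96.57%) and Rpl21-ps6 (92.64%) lie to the left of the others. Bases in a gap count as differences.

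The gap between a locus and its parent differed widely among the best covered loci when levels were taken per length. Averaged over the 7 mice and divided by the annotated transcript length, Rpl36-ps2 stood at 1577 CPM per kilobase and Rpl36 at 2650. For Rpl31-ps8 the level was 549.1 CPM per kilobase, with Rpl31 at 802.2. The gap was much wider for Rps19-ps6, at 344.1 CPM per kilobase with Rps19 at 1594, and for Rps18-ps3, at 311.6 with Rps18 at 1866. Rpl9-ps6 stood at 59.9 CPM per kilobase with Rpl9 at 585.4. CPM is the usual depth-scaled count, here with edgeR's TMM factors. Annotated lengths differ within a pair, at 438 nt for Rps19-ps6 and 633 nt for Rps19, and 441 nt for Rps16-ps2 and 1109 nt for Rps16. Whether counts rise with transcript length in these libraries, barcoded at the 5′ end, was not tested, so levels per length are a rough guide.

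One right ventricle library, that of nanoplastics mouse 2, had 4662 counts, 12 of them at the loci, and the other 20 held 413436 to 2439314. Heart muscle markers were high in the other libraries, at 29180 to 51920 CPM summed over 4 genes. The label atria was poorly borne out: the summed CPM of 3 atrial muscle markers ran from 10.14 to 38990 in libraries labelled atria and from 4.509 to 1605 in libraries labelled as ventricles, while ventricular markers had 7822 to 12270 CPM in libraries labelled atria and 7239 to 13910 in those of ventricles. Sections are therefore called by their labels. In libraries labelled atria the atrial muscle markers had a median of 1518 CPM with nanoplastics (10.14 to 38990) and 52.86 CPM in controls (19.94 to 296.7). Treatment and atrial muscle content thus cannot be fully told apart there or in sums that include these libraries. The part of this mix in the treatment differences was not tested. The median annotated transcript length behind a count was 1526 ± 57.6 nt in the 4 nanoplastics mice and 1739 ± 44.14 nt in the 3 control mice (SD).

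The first question is whether the loci differ with nanoplastics in the whole heart, taken as the sum of a mouse's 3 libraries. They took a larger share of counts with nanoplastics: 0.2395 ± 0.01563% in nanoplastics hearts and 0.1952 ± 0.0127% in control hearts (SD, n = 4 and 3). In bulk tissue, fewer cells of a type and less RNA per cell cannot be told apart. Raw counts were summed, so a section weighs by its depth and the mix of sections differs between mice. The atrial libraries held 841786, 1290936, 887249 and 2275813 of the 3054688, 2336707, 2915123 and 3638487 counts of the nanoplastics mice. In control mice they held 1053232, 990954 and 1286523 of 5535114, 4910975 and 3033092 counts. Of the 154 loci, 49 had enough counts for the edgeR test and 105, with 1 to 78 counts in all, had not. Of those 49, 8 were higher with nanoplastics and none was lower at a Benjamini-Hochberg adjusted p under 0.05, where 1.79% of the 8485 genes tested were called higher and 0.766% lower. At an unadjusted p under 0.05 there were 34 (69.4%, against 18.2% of all genes tested), and 48 of the 49 fitted differences were positive (46.6% of all genes tested). Their median was 0.57 on the log2 scale, against -0.03 over all genes tested. The groups of mice did not overlap, nanoplastics higher, for 30 of the 49, where this held for 7.88% of genes, and nanoplastics was lower without overlap for 8.17%.

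Rpl31-ps8 had the smallest adjusted p of the loci. Its parent encodes a large-subunit protein beside the exit of the tunnel through which the new chain leaves. It had 290.4, 245.8, 236.5 and 222.4 CPM in nanoplastics hearts, against 148.3, 159.6 and 149.9 CPM in control hearts. Every nanoplastics heart was above every control heart. The log2 difference was 0.70 ± 0.13 (SE, edgeR adjusted p = 0.0183), and that of Rpl31 was 0.63 ± 0.15 (edgeR adjusted p = 0.0328).

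Rpl36-ps2, named for a protein on the surface of the large subunit, had 586.2, 587.7, 523.4 and 546.9 CPM in nanoplastics hearts, against 422.6, 425.5 and 341.4 CPM in control hearts. Every nanoplastics heart was above every control heart here too. Its log2 difference was 0.50 ± 0.13 (SE, edgeR adjusted p = 0.0458). Rpl36 had 1268, 1209, 1084 and 1025 CPM in nanoplastics hearts, against 893.3, 868.1 and 757.2 CPM in control hearts, a log2 difference of 0.45 ± 0.13 (edgeR adjusted p = 0.0584). The pseudogene thus passed the threshold and its parent just missed it, with differences closer to each other than either SE.

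Rps16-ps2, whose parent encodes a small-subunit protein near the transfer RNA in the peptidyl site, had 189.9, 160.3, 144.2 and 145.5 CPM in nanoplastics hearts, against 111.4, 99.58 and 89.98 CPM in control hearts. Its log2 difference was 0.67 ± 0.14 (edgeR adjusted p = 0.025), and that of Rps16 was 0.64 ± 0.16 (edgeR adjusted p = 0.0444). Rps18-ps3, named for a protein of the head of the small subunit, had 172.9, 178.8, 159.9 and 149.5 CPM in nanoplastics hearts, against 122, 116.6 and 94.9 CPM in control hearts, with a log2 difference of 0.57 ± 0.13 (edgeR adjusted p = 0.0332). In neither locus did a control heart reach a nanoplastics heart.

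The other loci that rose are named for large-subunit proteins. Rpl27-ps3 had 76.47, 47.59, 44.53 and 47.35 CPM in nanoplastics hearts, against 31.25, 36.1 and 33.27 CPM in control hearts, and nanoplastics mouse 1 stood well above the rest. Its log2 difference was 0.68 ± 0.18 (edgeR adjusted p = 0.0458). Rpl10-ps3, whose parent joins the large subunit late in its assembly, averaged 33.5 ± 5.64 CPM in nanoplastics hearts and 20.9 ± 1.52 CPM in control hearts (SD), and Rpl10a-ps1, named for the protein of the mobile L1 stalk, averaged 30.6 ± 1.59 CPM in nanoplastics hearts and 19.3 ± 2.60 CPM in control hearts. Their log2 differences were 0.67 ± 0.17 and 0.65 ± 0.16 (edgeR adjusted p = 0.0439 and 0.0416). Rpl19-ps7, which GENCODE M21 lacks, had 32.02, 30.49, 27.74 and 36.16 CPM in nanoplastics hearts, against 15.89, 23.94 and 20.25 CPM in control hearts, a log2 difference of 0.66 ± 0.18 (edgeR adjusted p = 0.0478). Of the 8 loci that rose, 5 have a parent that rose as well.

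**Figure D2:**
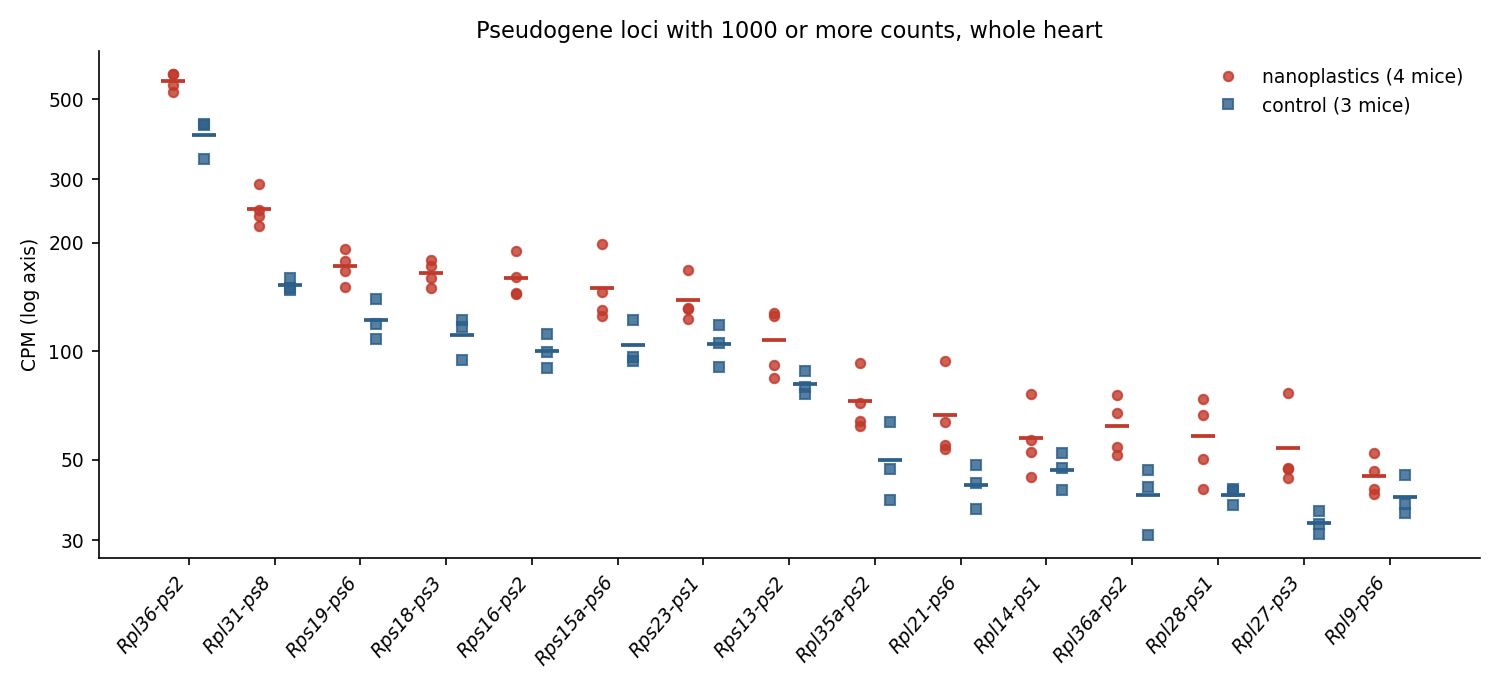
TMM-scaled CPM (log axis) of the 15 pseudogene loci with 1000 or more counts, whole heart; red circles are the 4 nanoplastics mice, blue squares the 3 control mice and lines the group means. The groups are apart for Rpl36-ps2, Rpl31-ps8, Rps18-ps3 and Rps16-ps2 and overlap for Rpl35a-ps2, Rps13-ps2, Rpl14-ps1 and Rpl9-ps6.

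Among the 41 tested loci that did not pass, 22 had groups apart, nanoplastics higher. Of the large-subunit loci not called, the log2 differences were 0.63 for Rpl36a-ps2, 0.71 for Rpl35a-ps4, 0.63 for Rpl21-ps6, 0.54 for Rpl28-ps1, 0.74 for Rpl15-ps3, 0.66 for Rpl7-ps7, 0.53 for Rpl35a-ps2, 0.63 for Rpl36a-ps1, 0.93 for Rpl34-ps1, 0.63 for Rpl17-ps3, 0.63 for Rpl18-ps1, 0.67 for Rpl38-ps2 and 0.59 for Rpl3-ps1, all with an unadjusted p under 0.05. Rpl14-ps1 (0.29), Rpl23a-ps3 (0.42), Rpl30-ps1 (0.49), Rpl18-ps2 (0.40), Rpl7a-ps7 (0.29), Rpl9-ps6 (0.18), Rpl35a-ps6 (0.37) and Rpl35a-ps5 (-0.20) were among those with larger p-values. Rpl35a-ps5 was the one tested locus with a lower mean with nanoplastics, at 4.144, 2.772, 2.555 and 1.148 CPM in nanoplastics hearts, against 3.354, 2.539 and 2.893 CPM in control hearts, and the groups overlap.

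Of the small-subunit loci not called, those with an unadjusted p under 0.05 were Rps4x-ps at a log2 difference of 0.81, Rps19-ps6 at 0.49, Rps12-ps9 at 0.76, Rps15a-ps6 at 0.52, Rpsa-ps10 at 0.65, Rps10-ps1 at 0.60, Rps23-ps1 at 0.40, Rps6-ps3 at 1.16, Rps18-ps5 at 0.69, Rps13-ps2 at 0.40, Rps24-ps3 at 0.61, Rps25-ps1 at 0.52 and Rps12-ps4 at 0.56. Rps10-ps2 (0.41), Rps2-ps10 (0.39), Rps2-ps13 (0.35), Rps6-ps4 (0.32) and Rpsa-ps9 (0.12) were among those with larger p-values. Rps6-ps3, the largest of all, averaged 3.91 ± 1.55 CPM in nanoplastics hearts and 1.603 ± 0.6692 CPM in control hearts (SD), on 67 counts in all. In all, 36 of the 49 fitted differences lay between 0.4 and 0.8.

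The parents moved much the same way. Of 53 parents 52 were tested, 26 were higher with nanoplastics and none was lower, with a median log2 difference of 0.53. Of a list of 82 cytosolic ribosomal protein genes, 79 were tested, 42 were higher and none lower, with a median of 0.54. Rpl9, with a log2 difference of 0.03, and Rps2, with 0.07, differed little, and their loci Rpl9-ps6 (0.18), Rps2-ps10 (0.39) and Rps2-ps13 (0.35) were also below the median locus. Among 194 pseudogene rows of other families, 26 were tested, 1 was higher and none lower, with a median of 0.24. Of the loci aligned to the parent over most of their length, those identical to it had a median of 0.66 (12 tested, 5 called) and the others one of 0.52 (34 tested, 2 called). Identical loci also had more counts, which makes a call easier. Over all aligned loci their median was 1084 counts, against 46, 18 and 3 in the classes of lower identity.

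The call does not survive every setting, and annotated length moves with it. With the trend of counts on transcript length taken out of each mouse, edgeR called none of the 49 loci. Of 8485 genes it called 39 higher and 21 lower. An unadjusted edgeR p under 0.05 was reached by 6 loci (12.2%, against 15.7% of all genes). The 49 loci's median log2 difference was 0.14, against -0.0016 over all genes. The parents fell less, with 10 of 52 called higher and a median of 0.39. Of the cytosolic ribosomal protein genes 12 of 79 were called higher, with a median of 0.35. The length was that of the longest annotated transcript of a gene. Rpl19-ps7 and Rps18-ps5, which GENCODE M21 lacks, had no length, so no trend was taken out of their counts. The best covered loci are annotated shorter than their parents, so the trend taken out differs within a pair. The smaller fall of the parents is therefore no measure of a difference in their RNA. The part of transcript length in the result was not tested further. Leaving out control mouse 2 also left 0 loci called, with a median of 0.56. Leaving out nanoplastics mouse 1, nanoplastics mouse 2 or control mouse 3 left 1 each, with medians of 0.48, 0.59 and 0.50. Calls over all genes fell as well in these fits, from 217 with all mice to 0, 32, 26 and 27. Without nanoplastics mouse 4 there were 3 loci, and 135 of all genes. Summed without the atrial libraries, 3 of 43 tested loci were called, with a median of 0.47, and 137 of all genes.

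**Figure D3:**
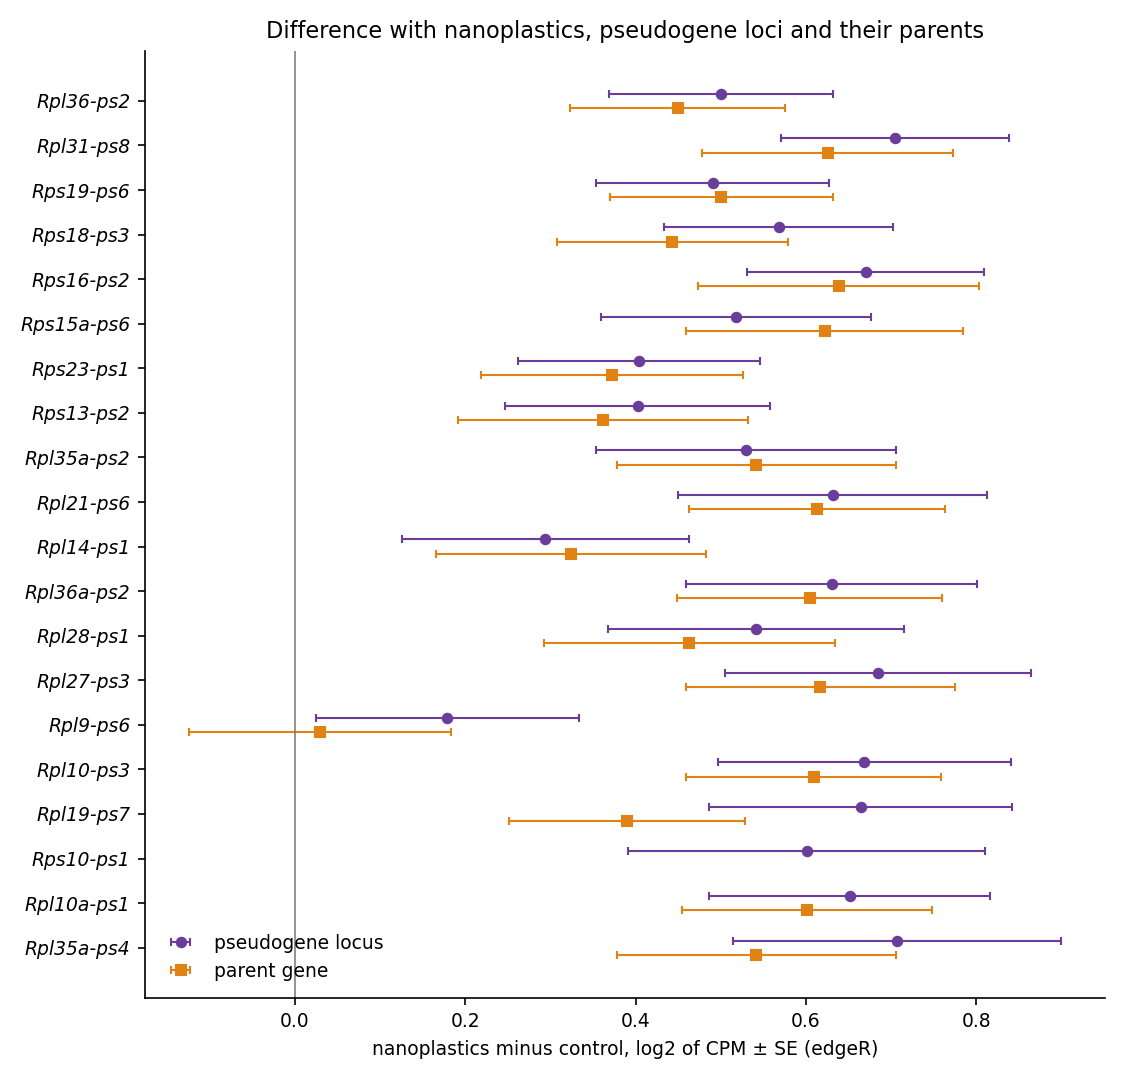
Log2 difference in CPM, nanoplastics minus control, in the whole heart (edgeR, bars ± SE) for the 20 tested loci with most counts, with the pseudogene locus (purple) above its parent (orange). Loci and parents lie side by side, from Rpl9-ps6 and Rpl9 near 0.18 and 0.03 to Rpl31-ps8 and Rpl31 at 0.70 and 0.63; Rps10 was not tested.

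The next question is whether counts at any locus moved apart from those of its parent, taken as the ratio of the 2 within a mouse, without any scaling of libraries. Where parent reads can be placed at the locus, a steady ratio cannot tell RNA made there from parent RNA placed there. Of the 15 loci with 1000 or more counts, 7 are identical to the parent over the aligned part, Rpl31-ps8 among them. All loci together had 6.88 ± 0.2506 counts per 100 parent counts in nanoplastics hearts and 6.621 ± 0.1891 in control hearts (SD, n = 4 and 3). Of 74 pseudogene and parent pairs of any family with at least 50 counts on each side, 54 are ribosomal. None of the 54 had an adjusted p under 0.05 in an exact two-sided permutation test over the 35 splits of the mice, where the smallest p is 0.0286 and adjustment over 74 pairs makes a call all but out of reach. In an edgeR fit with the parent's counts as offset, chosen after the data had been seen, none was called either, 2 had an unadjusted p under 0.05, Rpl19-ps7 and Rpl13a-ps1, and the smallest adjusted p was 0.475, for Rpl13a-ps1. The median log2 difference of the ratio over the 54 was 0.05, and 34 were within 0.2 of 0 in either direction.

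Rpl36-ps2 had 46.23, 48.62, 48.27 and 53.37 counts per 100 Rpl36 counts in nanoplastics hearts, against 47.31, 49.02 and 45.09 in control hearts. The groups overlap. The log2 difference of the ratio was 0.06, with a 95% interval of -0.05 to 0.16 from the edgeR fit with offset. Rpl31-ps8 had 50.92, 55.94, 55.91 and 54.54 counts per 100 Rpl31 counts in nanoplastics hearts, against 44.94, 51.37 and 59.13 in control hearts, with an interval of -0.05 to 0.22. For Rps19-ps6 the values were 13.74, 15.81, 15.66 and 14.55 counts per 100 Rps19 counts in nanoplastics hearts and 15.02, 15.1 and 14.81 in control hearts, with an interval of -0.15 to 0.14. For the 15 loci with 1000 or more counts, every interval held 0, and the bounds ran from -0.25 to 0.40. The fit takes the parent's counts as fixed and shares the spread among pairs. Its intervals can therefore be narrower than the spread of a locus over the mice allows, and they set no firm limit on the ratio. Over mice, the within-group SD of the log2 ratio was 0.13 for Rpl31-ps8 and 0.08 for Rpl36-ps2.

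Rps15a-ps6, the locus with a stop at codon 3, was the best covered of 3 loci whose groups were apart in the ratio. It had 21.61, 20.79, 21.79 and 21.18 counts per 100 Rps15a counts in nanoplastics hearts, against 22.09, 22.72 and 24.29 in control hearts. All its nanoplastics hearts were below all control hearts, by a small margin: the log2 difference was -0.11 (exact permutation p = 0.0286, the smallest possible, adjusted p = 0.705). Rpsa-ps9, named for the laminin receptor-like protein of the small subunit, had 0.9946, 1.014, 0.9601 and 1.025 counts per 100 Rpsa counts in nanoplastics hearts, against 1.48, 1.38 and 1.093 in control hearts, a log2 difference of -0.38 at the same p. Rpl35a-ps5 had 0.8215, 0.7958, 0.7299 and 0.3521 counts per 100 Rpl35a counts in nanoplastics hearts, against 1.079, 0.9563 and 1.376 in control hearts, a log2 difference of -0.75 at the same p, on 71 counts. Such a smallest p was reached by 4.05% of the 74 pairs, all of them these 3 ribosomal loci.

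The largest difference of the ratio was in the other direction, at Rpl13a-ps1, with few counts on either side. The locus had 57 counts over all libraries and Rpl13a had 96, where Rpl36 had 24987 and Rps19 24745. It had 110, 44.44, 40 and 260 counts per 100 Rpl13a counts in nanoplastics hearts, against 44, 39.13 and 35.71 in control hearts. Nanoplastics mice 1 and 4 were far above the rest, and the groups overlap. The log2 difference of the ratio was 1.07 (exact permutation p = 0.2, adjusted p = 0.991). It was 1.17 in the edgeR fit with offset, with a 95% interval of 0.33 to 2.01. That interval takes the Rpl13a counts as fixed, although they were 10, 9, 10 and 5 in nanoplastics hearts, so it is too narrow.

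At the median ribosomal pair the ratios varied between mice by a little more than counting alone gives. The chi-square per degree of freedom of the locus and parent counts over the 7 mice had a median of 1.29 for the 54 ribosomal pairs and 1.04 for the other 20 pairs, where counting alone gives values near 1. It was highest for Rpl19-ps7, at 5.25: that locus had 7.616, 8.108, 8.19 and 10.3 counts per 100 Rpl19 counts in nanoplastics hearts, against 4.823, 8.818 and 8.13 in control hearts, with control mouse 1 apart from the rest. Among loci with 1000 or more counts the median was higher, at 1.66, and values ran from 0.66 to 3.85, the highest at Rpl31-ps8. When the spread of a locus over mice was matched against that of 51 parents, its own parent was the nearest for 5 of 53 loci and the median rank of its own parent was 10. Of the 15 loci with 1000 or more counts, 9 had their own parent among the nearest 5, and 1 had it nearest.

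**Figure D4:**
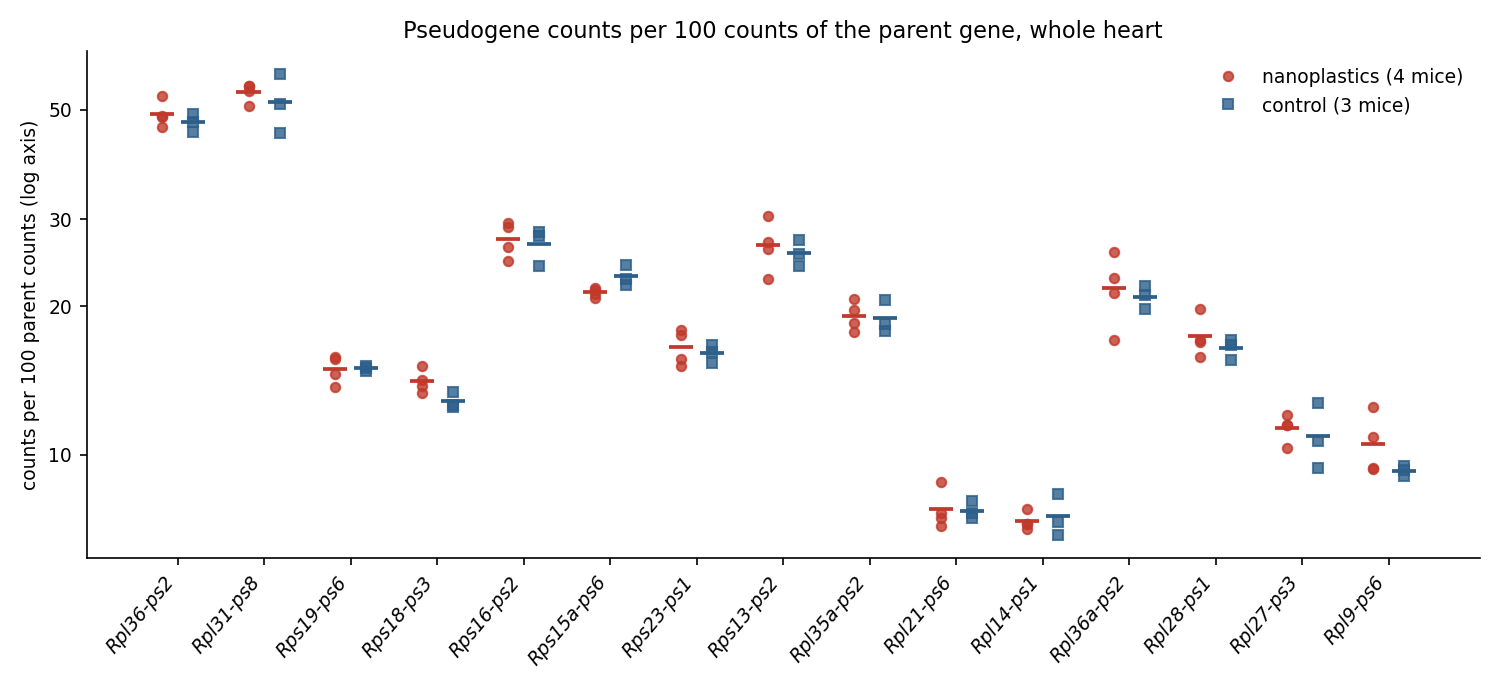
Counts of each of the 15 best covered loci per 100 counts of its parent (log axis), whole heart; red circles are the 4 nanoplastics mice, blue squares the 3 control mice and lines the group means. Of these 15 loci the groups are apart for Rps15a-ps6 alone, at 20.79 to 21.79 in nanoplastics hearts and 22.09 to 24.29 in control hearts.

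Within single sections fewer loci could be tested. In libraries labelled atria 32 were tested and edgeR called none, where 0% of genes were called, while 18 had an unadjusted p under 0.05 (56.2%, against 12.3% of all genes) and DESeq2 called 2, with 1.71% of all genes. The largest log2 differences were 1.49 for Rpl15-ps3, 0.97 for Rps12-ps9 and 0.91 for Rps10-ps1 (edgeR adjusted p = 0.305, 0.374 and 0.348). Rpl36-ps2 had 723.6, 619.3, 601.9 and 594 CPM in nanoplastics atria, against 526.3, 442.6 and 375.3 CPM in control atria, and the groups were apart. In left ventricle libraries 34 were tested and edgeR called none, where 0.0368% of genes were called higher and 0.0184% lower, while 13 had an unadjusted p under 0.05 (38.2%, against 14.1% of all genes) and DESeq2 called 2, with 1.47% of all genes. There Rpl36-ps2 had 500.7, 565.5, 482.4 and 505.3 CPM in nanoplastics left ventricles, against 377.3, 397.7 and 402 CPM in control left ventricles, again apart. The largest log2 differences were 1.01 for Rpl7-ps7, 0.86 for Rpsa-ps10 and 0.75 for Rpl10-ps3 (edgeR adjusted p = 0.169, 0.343 and 0.165).

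In right ventricle libraries 25 loci were tested and 4 were higher with nanoplastics, where 0.601% of genes were called higher and 0.267% lower. DESeq2 called none there, and none of all genes. Rps4x-ps, whose parent is the X-linked gene of a small-subunit protein, had 24.94, 20.01 and 31.39 CPM in 3 nanoplastics right ventricles, against 7.467, 7.147 and 7.8 CPM in control right ventricles. The shallow library of nanoplastics mouse 2 had no count there. Before scaling, the locus had 9, 13 and 11 counts in those 3 libraries and 14, 12 and 10 in control right ventricles. Its difference thus rests on few counts and on the scaling for depth. The log2 difference was 1.68 ± 0.40 (SE, edgeR adjusted p = 0.0112), while that of Rps4x was 0.53 ± 0.28 (edgeR adjusted p = 0.414). Ratios of locus to parent were not tested between treatments within single sections. Rpl31-ps8 had 382.4, 98.86, 270.9 and 382.4 CPM in nanoplastics right ventricles, against 158.4, 195.3 and 171.6 CPM in control right ventricles, a log2 difference of 0.93 ± 0.24 (edgeR adjusted p = 0.0189). The value of 98.86 CPM is that of the shallow library, and the other nanoplastics libraries were above every control library. Rpl27-ps3 (0.98 ± 0.25, edgeR adjusted p = 0.0233) and Rpl35a-ps2 (0.91 ± 0.24, edgeR adjusted p = 0.0267), named for a protein affected in some families with Diamond-Blackfan anaemia, were the others. Without the shallow library 5 loci were called, and Rpl27-ps3 was not one of them (0.97, edgeR adjusted p = 0.076). Without nanoplastics mouse 1 or any single control mouse no locus was called. The count of loci was 2 without nanoplastics mouse 4 and 9 without nanoplastics mouse 3. Of all genes, 18 were called without nanoplastics mouse 1, and 4, 17 and 20 without control mice 1, 2 and 3. It was 30 of all genes without nanoplastics mouse 4, 175 without nanoplastics mouse 3 and 68 without the shallow library. Rps12-ps9 (1.33) and Rps6-ps4 (1.23) had the next largest log2 differences after Rps4x-ps, at edgeR adjusted p of 0.0694 and 0.1.

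Differences of the nanoplastics effect between sections were tested for 40 loci over the 21 libraries. None had an adjusted p under 0.05, where 0% of genes had, with 3 loci (7.5%) at an unadjusted p under 0.05 in each of the 3 pairs of sections. Of all genes 5.5% had such a p for atria minus left ventricle, 3% for right minus left ventricle and 5.06% for atria minus right ventricle. The smallest adjusted p among the loci was 0.668, for Rps4x-ps, whose effect in libraries labelled atria minus that in right ventricles was -1.45 ± 0.48 on the log2 scale, and for Rps6-ps4, at -1.59 ± 0.51. In its counts, Rps4x-ps had 11.61, 13.52, 18.24 and 14.79 CPM in nanoplastics atria, against 8.324, 19.57 and 10.08 CPM in control atria, and these groups overlap.

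**Figure D5:**
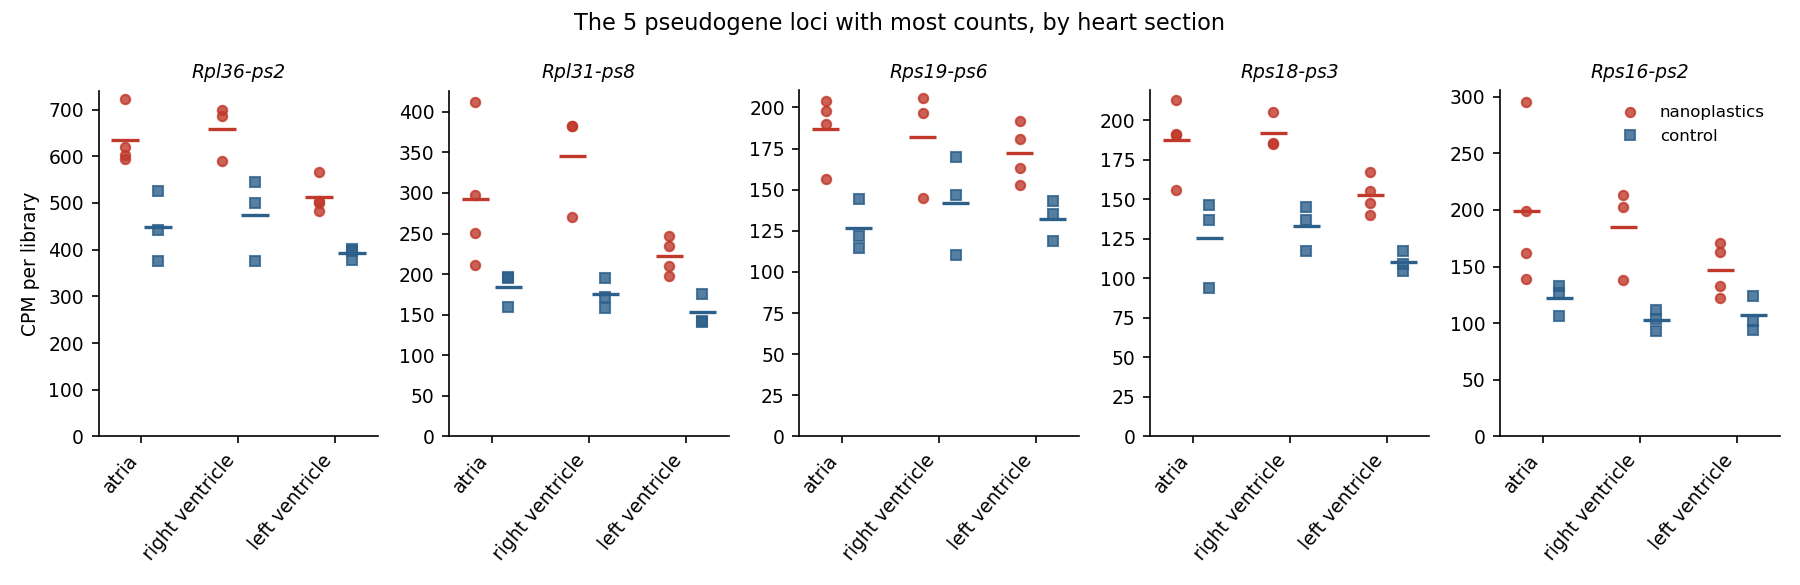
TMM-scaled CPM per library of the 5 pseudogene loci with most counts in libraries labelled atria, right ventricle and left ventricle; red circles are nanoplastics, blue squares control and lines the group means, without the library of 4662 counts. Rpl36-ps2 groups are apart in each section, and Rps19-ps6 groups overlap in the right ventricle, where nanoplastics libraries had 196.7, 144.7 and 205.5 CPM and control libraries 169.6, 146.5 and 110.

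Between sections of the same mouse no locus was called. Comparing atria with left ventricle 31 loci were tested, atria with right ventricle 29, and right with left ventricle 30, where edgeR called 0.155%, 0.525% and 0.02% of genes higher in the first section of each pair and 0%, 0.0807% and 0% lower. At an unadjusted p under 0.05 there were 0, 3 and 0 loci (0%, 10.3% and 0%), against 12.6%, 7.27% and 5.21% of all genes, and DESeq2 called no locus in any pair. Rpl36-ps2 averaged 535.7 ± 113 CPM in atria and 480.8 ± 73.25 CPM in left ventricles (SD, n = 7), a log2 difference of 0.14 ± 0.10. Rpl31-ps8 averaged 237.9 ± 83.71 CPM in atria and 200.5 ± 44.13 CPM in left ventricles, with a log2 difference of 0.22 ± 0.12. Rps12-ps9 had the largest log2 difference in both pairs with atria, 0.50 ± 0.27 against left ventricle and 0.61 ± 0.25 against right ventricle (edgeR adjusted p = 0.453 and 0.521). Rps6-ps4 had the largest between right and left ventricle, -0.32 ± 0.23 (edgeR adjusted p = 0.969).

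Ratios to the parent were compared between sections in the same way. Of 53 pairs tested in each comparison none had an adjusted p under 0.05 in the exact sign-flip permutation test over mice. The smallest p with 7 mice is 0.0156. Comparisons with the right ventricle used 6 mice, without the shallow library, where the smallest p is higher still. Adjustment over 73 pairs of all families made a call all but out of reach in each comparison. At an unadjusted p under 0.05 there were 2 loci between atria and left ventricle (2.74% of all pairs), 1 between atria and right ventricle (1.37%) and 1 between right and left ventricle (2.74%). Rps19-ps6 was among them, with a log2 ratio of -2.80 in atria and -2.65 in left ventricles, lower in atria in 6 of 7 mice (exact sign-flip permutation p = 0.0469, adjusted p = 0.947). The others, Rpl17-ps5, Rpl17-ps10 and Rps2-ps13, had 73, 70 and 149 counts over all libraries.

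A few loci did not stand to their named parent as the rest did. Rps10, which encodes a small-subunit protein near the entry of the messenger RNA, had 4 counts in all libraries together, while its copies Rps10-ps1 and Rps10-ps2 had 633 and 322 and were the only loci with more counts than their parent. In GENCODE M21 the Rps10 gene overlaps another coding gene on the same strand. Rps10-ps1, on chromosome 3, differs from the annotated Rps10 by G99C, A233G, T236C, T285C, G418A and A438G, and Rps10-ps2, on chromosome 16, by T393C, T408C, C437G, A438G and G473A. Bases 91 to 300 of Rps10-ps1 and 380 to 480 of Rps10-ps2 are shown.
Rps10-ps1: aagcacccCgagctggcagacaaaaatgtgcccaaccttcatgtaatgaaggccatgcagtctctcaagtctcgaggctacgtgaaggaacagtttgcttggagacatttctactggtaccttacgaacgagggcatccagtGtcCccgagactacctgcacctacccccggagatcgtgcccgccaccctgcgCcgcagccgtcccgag
Rps10-ps2: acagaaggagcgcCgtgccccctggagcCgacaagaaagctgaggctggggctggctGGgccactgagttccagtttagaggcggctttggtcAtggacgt
Rps10-ps1 had 45.58, 29.11, 26.28 and 22.38 CPM in nanoplastics hearts, against 23.13, 19.41 and 17.65 CPM in control hearts, and the groups overlap by a single control heart. Rps10-ps2 had 19.21, 12.01, 13.87 and 13.2 CPM in nanoplastics hearts, against 11.3, 11.25 and 10.13 CPM in control hearts, which do not overlap, at an edgeR adjusted p of 0.293.

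The Rpl35a copies with a shared body had unequal counts. Rpl35a-ps2, Rpl35a-ps4, Rpl35a-ps6 and Rpl35a-ps3 had 1553, 496, 108 and 4 counts, although nothing within their 333 annotated bases tells them apart. Rpl35a-ps4 had 30.89, 27.72, 20.81 and 20.66 CPM in nanoplastics hearts, against 15.36, 17.05 and 12.73 CPM in control hearts, and Rpl35a-ps6 had 6.781, 3.234, 4.745 and 4.304 CPM in nanoplastics hearts, against 5.12, 3.446 and 2.025 CPM in control hearts. The first has groups apart and the second groups that overlap.

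Rpl36a-ps3, with 9 counts, shares 282 of its 302 runs of 20 bases with Rpl36al and 11 with its named parent Rpl36a. Of loci with few counts that were tested, Rpl18-ps1 had 9.795, 6.468, 6.57 and 8.609 CPM in nanoplastics hearts, against 6.179, 3.991 and 5.208 CPM in control hearts, with groups apart and an edgeR adjusted p of 0.197.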

How the data were processed

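Libraries were made from poly(A) RNA with a barcoded template-switching oligonucleotide at the 5′ end, per the labels' protocols. The authors deposited raw counts per gene symbol. STAR is named without a version, per the submitters' processing notes; build, annotation, counter, strand, use of molecular identifiers and the treatment of reads that match several places are not given here by labels or headers, so counts of near-identical loci and of loci inside other genes are uncertain. Reads without identifiers are not independent molecules. Library totals ran from 4662 to 2439314 counts and whole-heart sums from 2336707 to 5535114. No pair of libraries was identical. Each mouse is 1 replicate.

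Counts were tested with edgeR 4.0.16 in R 4.3.3 (robust quasi-likelihood, TMM, filterByExpr, Benjamini-Hochberg over all genes tested, threshold 0.05), section pairs with the mouse as block. Ratios were log2((locus + 0.5)/(parent + 0.5)) for pairs with at least 50 counts each, with exact permutation tests adjusted over pairs of all families. Alternatives used DESeq2 1.42.0, limma 3.58.1, other scalings, no filter and left-out mice. Tested on simulated counts with changed genes, the whole-heart edgeR step recovered 68% of 2-fold and 93% of 4-fold changes, with 13 false calls (8485 genes). Changes under 2-fold, where most differences of the loci lie, were not simulated. Sequences were aligned with Biopython 1.88. Named are the tested loci, apart from some not reported here, the 5 with most counts, those called and up to 3 largest differences per comparison; other loci named for their sequence or counts were chosen after their values were seen. The members and lists were chosen with earlier results of these data known.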

Additional observations from a re-analysis of the deposited data

Results flagged for a closer look

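In each group of 4 nanoplastics hearts, a locus' highest or lowest value was compared with the range of the group, and 6 groups had a value far from the other 3; chance flags about 1 in 20. In CPM these were Rpl27-ps3 at 76.47 and Rps6-ps4 at 23.36, both in nanoplastics mouse 1, of 49 loci looked at. In counts per 100 parent counts, of 54 loci, they were Rps12-ps4 at 3.285 (nanoplastics mouse 3), Rpl3-ps1 at 4.244 (nanoplastics mouse 4), Rpl35a-ps6 at 0.9284 and Rpl19-ps11 at 1.72 (both nanoplastics mouse 2).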

How the results depend on the processing

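In the whole heart edgeR called 8 loci, and 217 of all genes. Library totals alone gave 2 loci and 797 genes (all genes' median log2 difference then -0.27, the loci's 0.33). The DESeq2 Wald test gave 14 and 333, the length trend removed 0 and 60, and the sum without the atrial libraries 3 and 137. Leaving out single mice gave 0 to 9 loci and 0 to 201 genes. In the right ventricle 4 loci and 39 of all genes were called. Library totals gave 2 and 234, DESeq2 0 and 0, no filter 0 and 20, and the length trend removed 0 and 20. Leaving out single mice gave 0 to 9 loci and 4 to 175 genes. DESeq2 called 2 loci in atria and 2 in the left ventricle, with 94 and 80 of all genes. There edgeR called 0 loci, with 0 and 3 of all genes. Between atria and right ventricle leaving out single mice gave 0 to 2 loci. The 2 were without nanoplastics mouse 4, where 92 of all genes were called, against 30 with all mice. The other section pairs kept 0 calls under each alternative run. The ratio to the parent also had 0, but with a mouse left out or the replicate block its smallest treatment p was 0.0667 to 0.25. No call can pass at such a p, so those fits say nothing of its stability. Between sections the ratio's smallest p was 0.0312 to 0.0625 with a mouse left out, and a call was all but out of reach there too. A replicate number names different mice in the treatment groups, whose same-numbered deviations correlated at 0.07, 0.09 and -0.04. With the number as a replicate block, 14 loci were called in the whole heart, 6 in atria, 0 in right and 0 in left ventricle libraries. Of all genes 313, 106, 4 and 0 were called with this block. Of single loci named here, these changed sign in the whole heart: with the length trend removed Rpl36-ps2 (-0.020), Rpl14-ps1 (-0.039), Rpl9-ps6 (-0.11), Rps13-ps2 (-0.033), Rpsa-ps9 (-0.10), Rpl35a-ps6 (-0.12) and Rps23-ps1 (-0.048); with library totals alone Rpl9-ps6 (-0.061) and Rpsa-ps9 (-0.12); without nanoplastics mouse 1 Rps6-ps4 (-0.11; -0.11 to 0.60 over single mice left out); and Rpl35a-ps5 with the replicate block (0.11) and without nanoplastics mouse 4 (0.11; -0.29 to 0.11 over single mice left out). The cause was not tested. Leaving out the shallow library, or the atria of nanoplastics mouse 1, both chosen after seeing the data, kept 8 calls. Of all genes 217 and 221 were called then. Loci with few counts limit the ratio: 47 of 54 had a 95% interval within 1 log2 unit of 0. Those intervals are from the edgeR fit that takes the parent's counts as fixed.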
